A study of Gallus gallus with 10 samples.

Results

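The genes described here are the chains of the collagens, laminins and integrins of the chicken embryo, the proteins that build the extracellular matrix and the receptors that hold cells to it. They were chosen by gene symbol, as every gene named as a numbered collagen chain (COL), a laminin alpha, beta or gamma chain (LAMA, LAMB, LAMC) or an integrin alpha or beta chain (ITGA, ITGB), leaving out integrin-binding proteins with similar names. This gave 73 of the 25443 genes in the table, 41 collagens, 12 laminins and 20 integrins. Wild-type chicken embryos were electroporated across the epiblast at stage 4/5 with a vector for mouse Otx2 together with a vector for EGFP, both under the ubiquitous CAGGS promoter, or with EGFP but no Otx2, and were cultured to stage 10-11. Poly-A RNA was sequenced from 10 libraries, each made from the tissue of 4 pooled embryos. OT and CT are the sinus rhomboidalis, the posterior open neural plate at the end of the trunk, of Otx2 embryos (OT1, OT2, where the tissue is called the equivalent of the sinus rhomboidalis) and of controls (CT1, CT2). The control pool CT1 is titled as without electroporation. OH and CH are the midbrain-hindbrain of Otx2 embryos (OH1, OH2) and of controls (CH1, CH2), and OA and CA are the posterior area opaca, an extra-embryonic tissue, with 1 pool each.

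Fibrillar collagens such as types I, II, III, V and XI form the banded fibers of connective tissue and cartilage, and type IX collagen sits on the surface of type II fibrils. Type IV collagen and the laminins form the sheets of the basement membrane, on which epithelia such as the neural plate and the surface ectoderm rest. A laminin is a trimer of an alpha, a beta and a gamma chain, and an integrin is a pair of an alpha and a beta chain that binds a matrix protein outside the cell and the cytoskeleton inside it. In early embryos these proteins guide the movement of mesoderm and neural crest and shape the neural tube and the somites.

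The libraries held 28606038 to 40806402 counts, with a median of 32615321. The mouse Otx2 sequence gave 334 and 529 TPM (a level corrected for transcript length and scaled to the same total in each library) in OT, 97.4 and 160.3 TPM in OH and 139.5 TPM in OA, and 0 TPM in CT, CH and CA. The labels of the CT pools do not agree among themselves: the title of CT1 says that it was not electroporated while its treatment entry lists the EGFP vector, and for CT2 the treatment entry says that there was no electroporation. EGFP stood at 1.12 TPM in CT1 and at 15330 TPM in CT2, so that CT1 and OT also differ in exposure to the EGFP vector. Markers of the labelled tissues were present, with chicken OTX2 at 87.8 and 91.8 TPM in OH and 80.2 and 63.2 TPM in CH, and TBXT, a marker of the posterior growth zone, at 214 and 192 TPM in CT. In OT, TBXT was at 38.3 and 21.4 TPM. The pools were used as the replicates of each group. The 2 CT pools differ in EGFP, so the CT mean and spread may not be those of 1 treatment. Nothing in the labels says whether the embryos of the pools were electroporated on separate days. The library of CT1 is named NewCT1 and that of CT2 is named CT2, and the labels do not say what the prefix refers to.

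Of the 73 genes, 64 reached 1 TPM in at least 1 library and 39 reached 10 TPM. The 9 below 1 TPM in every library were COL4A3, COL6A2, COL6A6, COL10A1, COL20A1, COL21A1, COL28A1, LAMA3 and LAMB4. Together the genes took 0.576% (CT1) to 0.865% (OT1) of the counts of a library. Per transcript length, the leading chains were those of basement membranes and of the most widely used integrins. The highest collagens by mean TPM over the 10 libraries were COL4A5 (267), COL18A1 (179), COL4A6 (150.1), then COL2A1 and COL5A2 (71.0). The highest laminins were LAMB1 (291), LAMC1 (142), LAMA5 (78.1), LAMA1 (52.0) and LAMA4 (6.21), and the first 4 of these made up 93.9% to 99.0% of the laminin TPM of each library. The highest integrins were ITGB1 (271), the beta chain shared by most integrins, then ITGB5 (135), ITGAV (37.7), ITGB3 (34.4) and ITGA5 (33.0).

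The make-up of the collagen pool differed among the regions. Summed collagen TPM were 1258 and 1101 in OT and 810 and 1041 in CT, and 1616 and 1626 in OH and 1462 and 1576 in CH. Basement membrane collagens (types IV, XV and XVIII) made up 68.0% and 57.3% of the collagen TPM in OT and 54.4% and 63.1% in CT, against 40.7% to 43.3% in the 4 midbrain-hindbrain libraries. Fibrillar collagens, here the chains of types I, II, III, V and XI without COL24A1 and COL27A1, showed the opposite order. They made up 20.9% and 28.3% in OT, 17.8% and 17.8% in CT, and 37.7% to 38.9% in the midbrain-hindbrain. The area opaca resembled the trunk end in these shares, with basement membrane collagens at 68.4% in OA and 70.5% in CA. Summed laminin TPM were 642 and 497 in OT, 577 and 695 in CT, 649 and 644 in OH, and 530.1 and 530.7 in CH, and summed integrin TPM were 878 and 596 in OT, 519 and 658 in CT, 681 and 684 in OH, and 560 and 692 in CH.

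**Figure D1:**
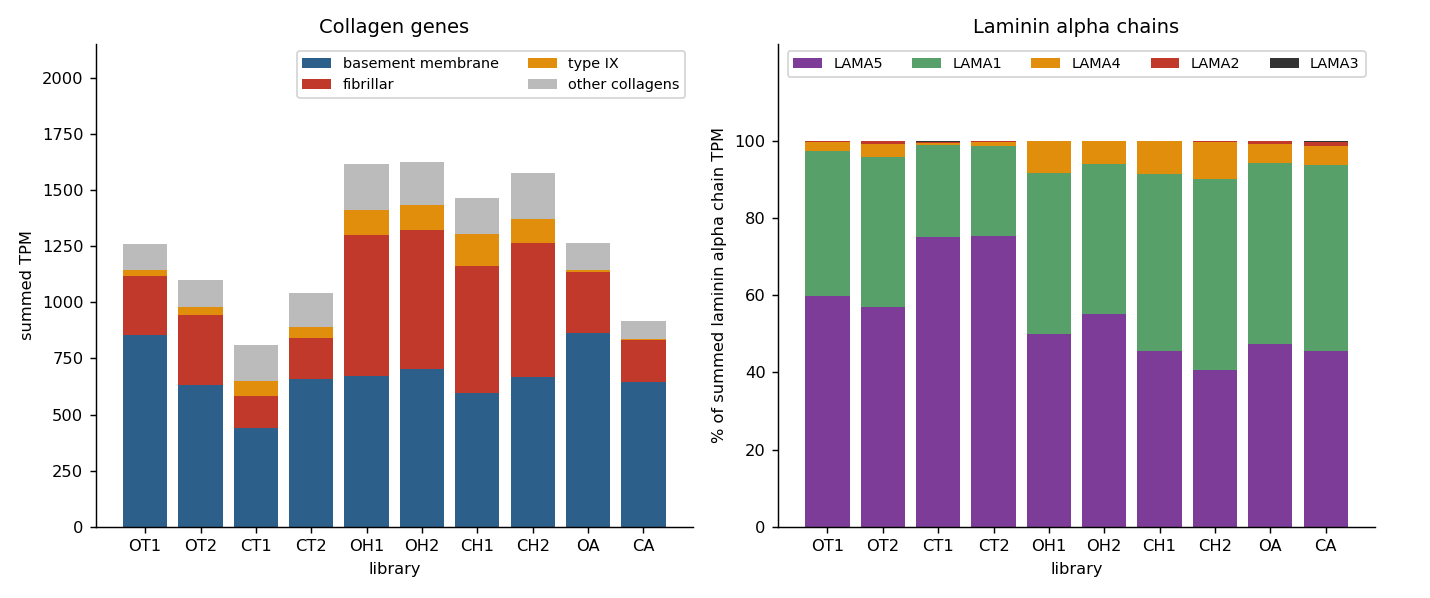
Left, summed TPM of the collagen genes in each of the 10 libraries, stacked by class; right, the share of each laminin alpha chain in the summed alpha chain TPM of the library. Fibrillar collagens take 37.7% to 38.9% of the collagen TPM in OH and CH and 17.8% to 28.3% in OT and CT, and LAMA5 takes 59.8% and 56.9% of the alpha chain TPM in OT and 75.0% and 75.2% in CT.

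Some chains of the same collagen type or of the same laminin class were far from equal in level. COL4A5 and COL4A6, neighbours on chromosome 4, were together 4.04 to 7.28 times as high in TPM as COL4A1 and COL4A2, neighbours on chromosome 1, and this held in all 10 libraries. COL4A5 was in turn 1.52 to 2.17 times as high as COL4A6, while COL4A1 and COL4A2 were within 0.732 to 1.17 of each other. COL6A1 exceeded COL6A2, its partner in type VI collagen, by 4.25 to 25.0 times. COL1A2 exceeded COL1A1 in TPM by 1.51 to 1.84 times in OH and CH and by 3.33 to 4.64 times in the other 6 libraries. Levels of COL1A1, ITGA3 and ITGA5 are uncertain, because their longest annotated transcripts are 1176, 452 and 1068 bases, and because another 21 genes of the table are described as similar to COL1A1. Among the laminin alpha chains, LAMA5 was 1.60 and 1.47 times as high as LAMA1 in OT and 3.15 and 3.20 times in CT, against 1.20 and 1.43 times in OH and 0.989 and 0.816 times in CH.

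OT was compared with CT to ask what exogenous Otx2 changed at the trunk end. Of the 7 fibrillar chains 3 were called higher in OT: COL5A1, COL5A2 and COL1A1 rose between 1.83- and 3.14-fold, and COL6A1, of the beaded filaments of type VI collagen, rose 4.51-fold. The laminin chains LAMA4 and LAMC3, the type IV chain COL4A4 and the integrins ITGA9 and ITGA11 also rose. COL8A2, COL23A1 and ITGA4 fell. These 12 calls were among 70 genes tested (COL10A1, COL28A1 and COL6A6 did not pass the count filter), a share of 17.1%, where 6.73% of all 16611 genes tested were called. The 9 that rose compare with 4.29% of all genes called higher, and the 3 that fell with 2.44% called lower. A gene was called at an adjusted p under 0.05 in edgeR's quasi-likelihood test over 4 groups. The median log2 fold change was 0.51 for the 70 genes and 0.033 for all genes. Of the 70, 46 were positive (65.7%, beside 52.5% of all genes).

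All but 1 of these calls were lost without CT1, the pool with almost no EGFP. With CT2 alone in its group, its spread taken from the other groups, only ITGA4 was called (log2 fold change -1.49), and the 11 others kept their direction, with log2 fold changes of 1.56 for COL5A1, 1.94 for COL6A1, 0.92 for COL1A1, 0.88 for COL5A2, 1.89 for COL4A4, 1.12 for LAMA4, 2.01 for LAMC3, 1.02 for ITGA9, 1.47 for ITGA11, -1.06 for COL8A2 and -0.49 for COL23A1. The calls of all genes fell to 53 without CT1. With CT2 left out 6 of the 12 were kept, with ITGA4 then at -0.75 and LAMA4 at 2.33. COL5A1 and COL6A1 kept their calls when any of the 7 other libraries was left out, while the remaining calls were also lost with OH1 or OH2 left out, libraries that lend only their spread to this comparison. A fit of the 4 OT and CT libraries alone called COL5A1 only, and DESeq2 called 24 genes, all 12 among them.

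**Figure D2:**
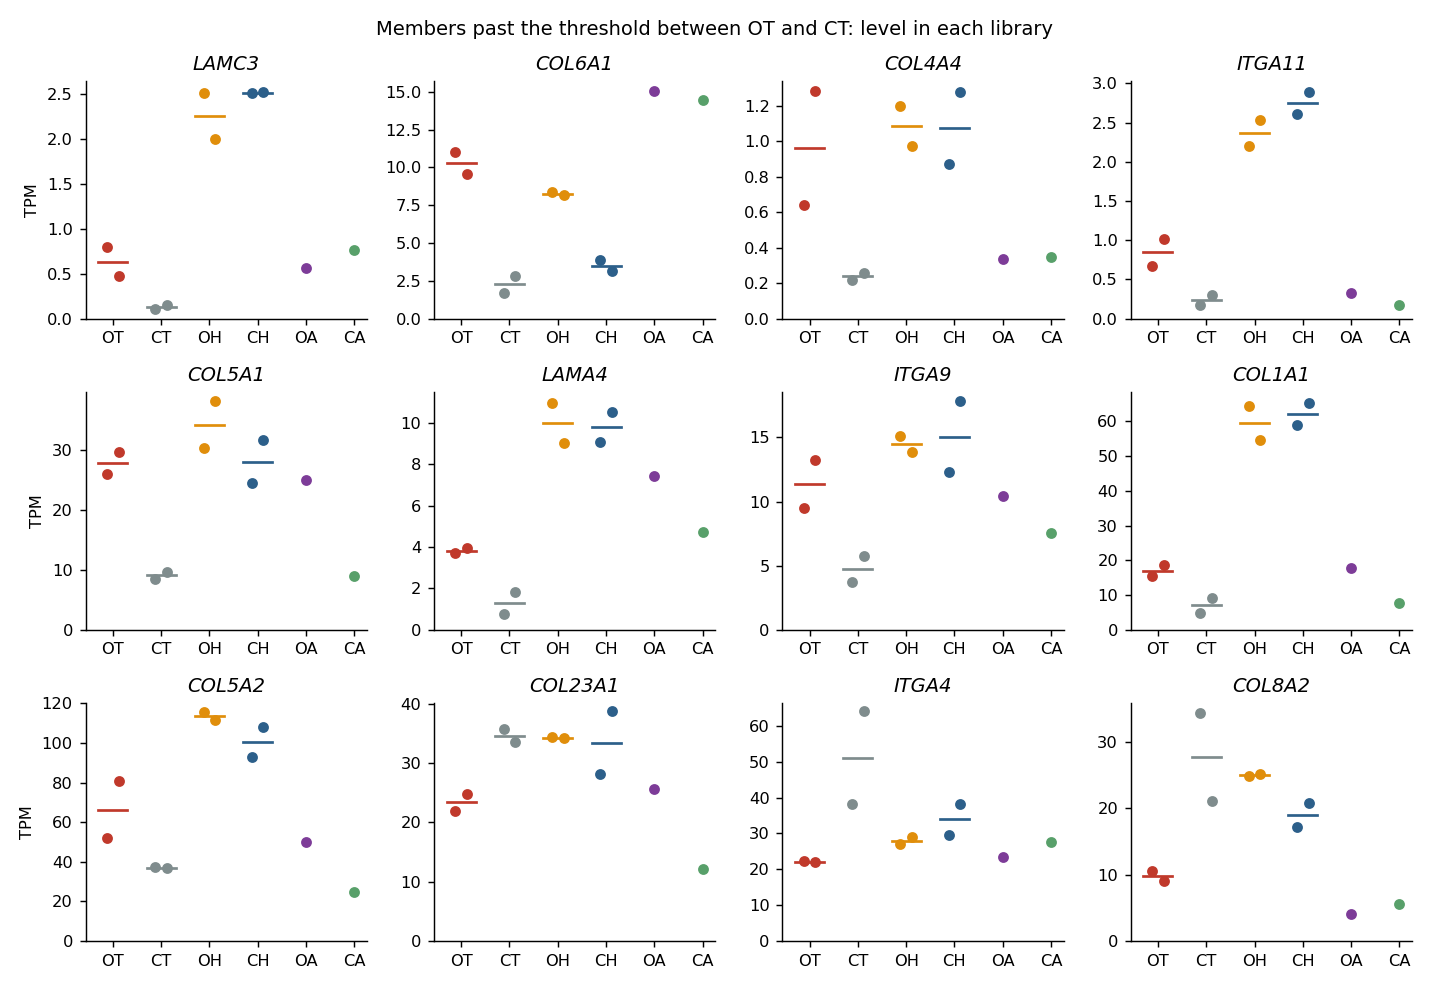
TPM of the 12 genes that passed the threshold between OT and CT, 1 point per library with the mean as a bar where there are 2 pools, from the largest rise (LAMC3) to the largest fall (COL8A2). OT and CT points do not overlap in any of the panels, which follows largely from choosing genes called between these groups. COL5A1 in OT (26.0 and 29.6 TPM) lies near its level in CH (24.5 and 31.6 TPM) while LAMC3 in OT (0.796 and 0.471 TPM) lies between CT and CH.

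Type V collagen starts and limits the growth of type I fibrils. COL5A1 (gene 395568, chr17:7452952-7581327 of GRCg7w) was at 26.0 and 29.6 TPM in OT, against 8.48 and 9.72 TPM in CT. The 4 values form 2 tight pairs that do not overlap, and the log2 fold change was 1.65 (SE 0.15, adjusted p = 0.00528), the smallest adjusted p among the 70 genes. COL5A2 (gene 423986, chr7:496403-603154) was at 51.8 and 81.0 TPM in OT, against 37.3 and 36.9 TPM in CT. OT2 stood well above OT1, and both lay above CT, with a log2 fold change of 0.87 (SE 0.18, adjusted p = 0.0364). COL1A1 (gene 395532, chr27:3934490-3940236), which codes for the more abundant chain of type I collagen, was at 15.5 and 18.6 TPM in OT, against 4.85 and 9.24 TPM in CT. CT1 was the lowest of all 10 libraries for this gene, and the log2 fold change was 1.30 (SE 0.30, adjusted p = 0.0462). Its whole annotated locus lies within that of ITGA3, and since the strand setting of the counting is not given in the sources used here, reads of the pair may not be told apart.

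The other chains of this fibrillar class had positive log2 fold changes that did not pass the threshold. COL24A1 and COL27A1, which the class leaves out, had log2 fold changes of 0.36 and -0.13 and were not called. COL1A2 was at 59.4 and 67.5 TPM in OT, against 22.4 and 42.8 TPM in CT (log2 fold change 1.00, adjusted p = 0.0687). COL11A1, which starts fibrils of type II collagen, was at 3.16 and 7.95 TPM in OT, against 2.55 and 2.97 TPM in CT (0.77, adjusted p = 0.124). For both, OT lay above CT without overlap, but in COL11A1 only OT2 stood clear. COL2A1, the chief collagen of cartilage and of the notochord sheath, was at 42.5 and 64.4 TPM in OT, against 48.9 and 30.0 TPM in CT, and COL3A1 was at 64.0 and 42.5 TPM in OT, against 19.7 and 53.3 TPM in CT. In these last 2 genes OT and CT overlapped. The 3 chains of type IX collagen had the opposite sign: COL9A1 was at 5.83 and 9.13 TPM in OT, against 10.7 and 11.7 TPM in CT, COL9A2 at 21.3 and 24.8 TPM against 53.9 and 32.8 TPM, and COL9A3 at 1.17 and 1.36 TPM against 2.20 and 1.91 TPM. None of the 3 was called (median log2 fold change -0.66).

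Type VI collagen forms beaded filaments close to cells. COL6A1 (gene 396000, chr7:6715082-6736759) was at 11.0 and 9.57 TPM in OT, against 1.72 and 2.80 TPM in CT. Both OT pools stood far above both CT pools, and the log2 fold change was 2.17 (SE 0.25, adjusted p = 0.0109). Its partners were lower in level and were not called: COL6A2 was at 0.879 and 0.612 TPM in OT, against 0.186 and 0.327 TPM in CT (log2 fold change 1.55), and COL6A3 at 3.42 and 1.52 TPM in OT, against 0.726 and 1.07 TPM in CT (1.53). In all 3 chains OT lay above CT without overlap.

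The 2 collagens that fell are not fibril formers. COL8A2 (gene 428221, chr23:4241171-4266121), a short chain of the hexagonal network under the corneal endothelium, was at 10.6 and 9.05 TPM in OT, against 34.4 and 21.2 TPM in CT. CT1 was the highest of all 10 libraries, and the log2 fold change was -1.46 (SE 0.23, adjusted p = 0.0201). COL23A1 (gene 425481, chr13:13751316-13907529), a collagen anchored in the cell membrane, was at 22.0 and 24.8 TPM in OT, against 35.7 and 33.5 TPM in CT, and its log2 fold change of -0.54 (SE 0.12, adjusted p = 0.0483) was the smallest of the 12 in size.

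All 8 basement membrane collagens had positive log2 fold changes (median 0.48), where 52.5% of all genes did, and 1 of them was called. In COL4A1, COL4A2 and COL4A5 the OT and CT pools overlapped. COL4A4 (gene 424799, chr9:8776407-8841037) was at 0.638 and 1.29 TPM in OT, against 0.218 and 0.258 TPM in CT, a log2 fold change of 1.99 (SE 0.44, adjusted p = 0.0423). It is a minor chain whose locus shares 19185 bases with COL4A3, which stood at 0.211 and 0.190 TPM in OT and at 0.0541 and 0.125 TPM in CT. The abundant chains were not called, and OT1 and CT1 set the widest gaps. COL4A5 was at 381 and 269 TPM in OT, against 166 and 292 TPM in CT, so that OT2 was below CT2, and COL18A1, a heparan sulfate collagen of basement membranes, was at 165.5 and 164 TPM in OT, against 139 and 147 TPM in CT. COL4A6 was at 216 and 137.5 TPM in OT, against 88.7 and 135 TPM in CT (log2 fold change 0.71, adjusted p = 0.143).

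Among the laminins, LAMA4, the alpha chain of vessel and mesenchyme basement membranes, and LAMC3, a gamma chain of restricted distribution, rose. LAMA4 (gene 421749, chr3:65181578-65277958) was at 3.70 and 3.96 TPM in OT, against 0.769 and 1.81 TPM in CT. The OT pools agreed closely while CT1 was well below CT2, and the log2 fold change was 1.60 (SE 0.36, adjusted p = 0.0462). LAMC3 (gene 417180, chr17:6080897-6095869) was at 0.796 and 0.471 TPM in OT, against 0.109 and 0.156 TPM in CT, with a log2 fold change of 2.24 (SE 0.42, adjusted p = 0.0309). The 4 abundant chains were not called. LAMA5 had a log2 fold change of -0.70 (adjusted p = 0.102), at 92.7 and 65.8 TPM in OT, against 119 and 146 TPM in CT. LAMB1 (304 and 259 TPM in OT, 298 and 350.4 TPM in CT), LAMC1 (158 and 115 TPM in OT, 116 and 142 TPM in CT) and LAMA1 (57.8 and 44.7 TPM in OT, 37.9 and 45.8 TPM in CT) overlapped between OT and CT. LAMB2, a beta chain, was above CT in both OT pools, at 5.51 and 4.01 TPM in OT, against 0.946 and 1.998 TPM in CT (log2 fold change 1.73, adjusted p = 0.0542).

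Of the 20 integrins, 3 were called. ITGA9 (gene 420757, chr2:48672603-48894993), which pairs with ITGB1 and binds tenascin and other ligands, was at 9.47 and 13.2 TPM in OT, against 3.71 and 5.73 TPM in CT. Both OT pools were higher, with a log2 fold change of 1.30 (SE 0.25, adjusted p = 0.0323). ITGA11 (gene 415560, chr10:19047641-19098711), a collagen receptor chain of mesenchymal cells, was at 0.676 and 1.02 TPM in OT, against 0.170 and 0.305 TPM in CT, with a log2 fold change of 1.80 (SE 0.38, adjusted p = 0.0385). ITGA4 (gene 424121, chr7:13857230-13890964), a receptor chain for fibronectin and VCAM1, fell: it was at 22.2 and 22.0 TPM in OT, against 38.1 and 64.2 TPM in CT. The OT pools were nearly equal while CT2 stood far above CT1, and the log2 fold change was -1.17 (SE 0.23, adjusted p = 0.0339).

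ITGB1, the common partner chain, was nearly level, at 243 and 270.5 TPM in OT, against 252 and 262 TPM in CT. The RGD-binding integrins, which bind fibronectin and vitronectin, had no call among 8 genes. In OT1 alone, ITGB5 reached 327 TPM and ITGAV reached 98.03 TPM, whereas OT2 had 107 and 35.2 TPM, CT1 96.5 and 19.98 TPM and CT2 153 and 35.6 TPM. Without OT2, which leaves OT1 alone in its group, ITGB5 and ITGAV were called. LAMB3, a laminin beta chain of epithelia, had 6.16 TPM in OT1 and 1.66 TPM in OT2, against 1.25 and 3.05 TPM in CT. OT1 also held the higher sums of blood markers (8122 TPM in OT1, 1128 TPM in OT2) and of extra-embryonic endoderm markers (12230 TPM in OT1, 8522 TPM in OT2), and their part in these values was not tested. ITGB3 was at 55.4 and 30.0 TPM in OT, against 8.78 and 19.0 TPM in CT (log2 fold change 1.67, adjusted p = 0.0621), and ITGA5, the fibronectin receptor chain, at 34.2 and 27.6 TPM in OT, against 43.4 and 51.6 TPM in CT (-0.57, adjusted p = 0.153). ITGB6 was at 1.05 and 0.690 TPM in OT, against 0.983 and 1.35 TPM in CT, ITGB8 at 3.87 and 7.29 TPM in OT, against 2.48 and 3.44 TPM in CT, and ITGA8 at 10.2 and 14.6 TPM in OT, against 7.63 and 10.3 TPM in CT.

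Among the laminin-binding chains none was called. ITGA6 was at 27.7 and 35.3 TPM in OT, against 23.5 and 24.8 TPM in CT, ITGA3 at 21.9 and 11.2 TPM in OT, against 6.14 and 8.81 TPM in CT, and ITGA7, a laminin receptor chain of muscle, at 5.63 and 5.50 TPM in OT, against 1.55 and 1.99 TPM in CT (log2 fold change 1.69, adjusted p = 0.132). ITGB4, the hemidesmosome chain, was at 6.86 and 4.15 TPM in OT, against 6.68 and 6.85 TPM in CT. The collagen-binding chains ITGA1 (0.887 and 1.36 TPM in OT, 0.702 and 0.757 TPM in CT) and ITGA2 (2.75 and 2.79 TPM in OT, 2.92 and 2.90 TPM in CT) were low in both groups. ITGA2B of thrombocytes was at 2.55 and 2.33 TPM in OT, against 1.01 and 1.66 TPM in CT, ITGB2 of leukocytes at 0.948 and 0.553 TPM in OT, against 0 and 0.196 TPM in CT, and ITGAD at 4.93 and 3.41 TPM in OT, against 2.92 and 2.93 TPM in CT. None of these 3 was called.

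The genes that did not pass the threshold spread over a wide range. Among collagens there were 31, of which 18 had positive log2 fold changes, between -0.79 for COL9A2 and 2.88 for COL19A1. COL19A1, a minor collagen near fibrils, was at 1.46 and 2.32 TPM in OT, against 0.273 and 0.140 TPM in CT (adjusted p = 0.0807). Both OT pools were higher, but the SE was 0.81. COL22A1, a collagen of tissue junctions, was the nearest to the threshold, at 1.66 and 2.72 TPM in OT, against 0.786 and 0.949 TPM in CT (1.34, adjusted p = 0.0519). COL26A1 had the nearest negative value, at 28.4 and 34.5 TPM in OT, against 43.4 and 53.6 TPM in CT (-0.58, adjusted p = 0.0655). COL4A1 and COL4A2, the most widely used type IV chains, overlapped, COL4A1 with 40.7 and 27.6 TPM in OT, against 21.7 and 42.0 TPM in CT, and COL4A2 with 50.3 and 31.5 TPM in OT, against 25.2 and 40.5 TPM in CT. The 10 laminins and 17 integrins that were not called had 6 and 13 positive values. Among the low laminins, LAMA2, of muscle basement membranes, was at 0.374 and 0.889 TPM in OT, against 0.405 and 0.352 TPM in CT, LAMA3 had 55 and 30 reads in OT, against 109 and 73 reads in CT, and LAMB4 was at 0.211 and 0.291 TPM in OT, against 0.357 and 0.195 TPM in CT.

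**Figure D3:**
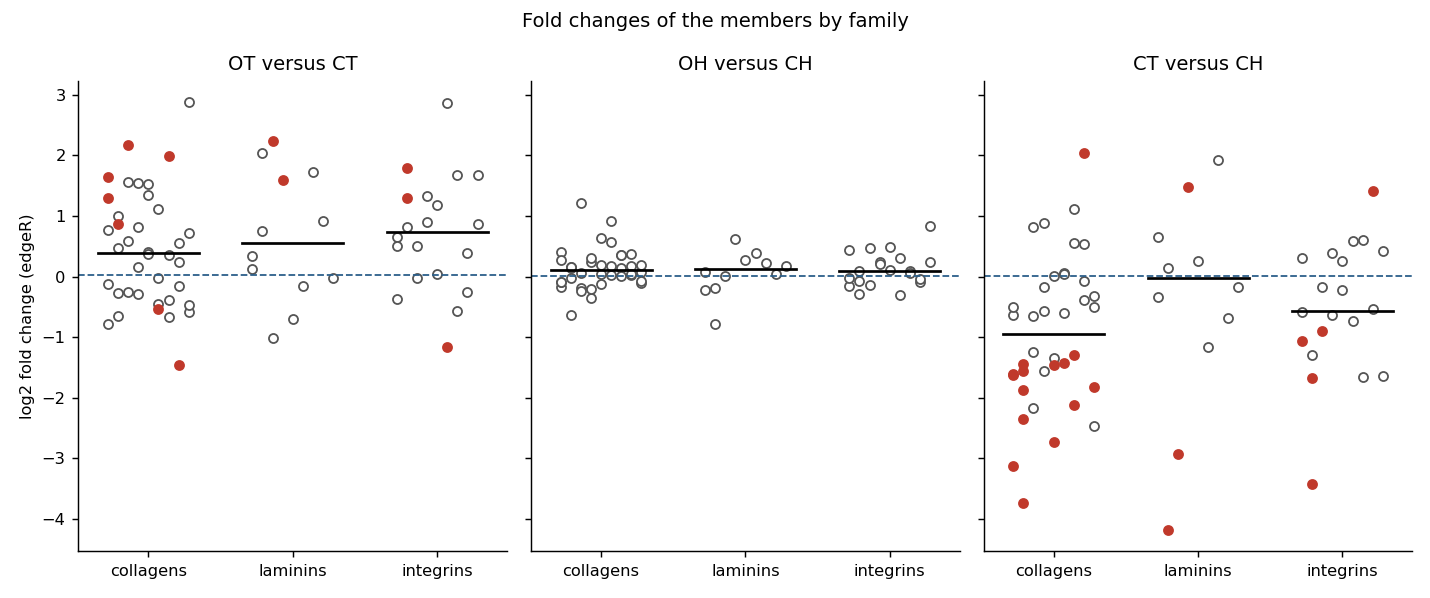
The log2 fold change of each tested gene by family in the 3 comparisons between groups; filled points passed the threshold, black bars are family medians and the dashed line is the median of all genes tested. LAMA3 is not drawn for OH versus CH and CT versus CH, where CH had no read. Family medians are 0.39, 0.55 and 0.74 for collagens, laminins and integrins in OT versus CT, and no point is filled in OH versus CH.

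Markers of other tissues also differed between OT and CT, and their part in these results was not tested. All 4 heart markers (TNNT2, NKX2-5, MYH15, ACTC1) were called higher, with summed levels of 1018 to 1182 TPM in OT and 7.74 to 8.37 TPM in CT. Of 4 neural crest markers 2 rose (SOX10, FOXD3) and SNAI2 fell, with sums of 52.9 to 91.2 TPM in OT and 113 to 131 TPM in CT, and FOXD3 was at 0 in CT1. The 4 extra-embryonic endoderm markers summed to 8522 to 12230 TPM in OT and 2160 to 5478 TPM in CT, with no call. Of 6 sinus rhomboidalis markers 4 fell, with sums of 78.7 to 222 TPM in OT and 685 to 734 TPM in CT. Of 5 notochord markers 3 fell and FOXA2 rose, with sums of 124 to 144.5 TPM in OT and 362 to 443 TPM in CT. TBXT, at 214 and 192 TPM in CT, is in both of these lists, and TBX6 is in the sinus rhomboidalis and paraxial mesoderm lists. SHH of the notochord list overlapped, at 29.3 and 38.3 TPM in OT, against 56.0 and 38.2 TPM in CT. The 4 endothelium markers (126 to 163 TPM in OT, 69.8 to 147 TPM in CT), the 3 blood markers (1128 to 8122 TPM in OT, 3327 to 4952 TPM in CT) and the 4 neural markers (24.8 to 88.6 TPM in OT, 31.1 to 40.2 TPM in CT) had no call. Of the paraxial mesoderm markers 1 of 5 fell (TBX6), of the surface ectoderm markers 1 of 5 fell (TFAP2A), and of the midbrain-hindbrain markers 3 of 5 rose and PAX2 fell. The midbrain-hindbrain markers summed to 24.96 to 48.85 TPM in OT and 15.55 to 19.95 TPM in CT, far below the 209 to 221 TPM in CH. Without CT1, most or all of the calls in the heart, sinus rhomboidalis, notochord and neural crest lists were lost. Some calls in each of these lists were also lost with CT2, OH1 or OH2 left out, so losses are not particular to CT1. In such bulk samples fewer cells of a type and less RNA per cell cannot be told apart.

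In the lists of genes that work with the matrix, the calls stand beside the 6.73% of all genes called. Of 19 tested partners of the basement membrane and fibril, VTN, the plasma and matrix ligand vitronectin, rose, at 97.1 and 95.0 TPM in OT, against 37.4 and 56.1 TPM in CT (log2 fold change 1.09, adjusted p = 0.0366). Of 19 folding and cross-linking enzymes, LOX, which cross-links collagen, rose, at 3.23 and 3.78 TPM in OT, against 0.305 and 0.638 TPM in CT (2.91, adjusted p = 0.0156). Of 8 other matrix receptors SDC2 rose (1.38) and SDC3 fell (-1.97), both of them syndecans. SDC3 kept its call when any of the 8 libraries was left out, whereas VTN, LOX and SDC2 lost theirs without CT1, with log2 fold changes of 0.84, 2.50 and 1.45. Of 15 integrin adaptors PARVB fell (-0.66, and -0.57 with no call without CT1), of 7 matrix proteases and inhibitors none passed the test, and of the 3 regulators of cartilage collagen genes SOX5, SOX6 and SOX9 none passed it either. VTN, SDC2 and PARVB, but not LOX, also lost their calls with OH1 or OH2 left out, so these losses are not particular to CT1. Median log2 fold changes were 0.46 for the partners, 0.40 for the enzymes and 0.050 for the adaptors, beside 0.033 for all genes.

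OH was compared with CH to ask the same of the midbrain-hindbrain, where chicken OTX2 is already expressed. No collagen, laminin or integrin was called of 70 tested, and 0.0361% of all genes were. At an unadjusted p under 0.05 there were 3 genes, COL6A1, COL9A3 and LAMA5. They are 4.29% of the 70, beside 2.76% of all genes. DESeq2 called 1, COL6A1. COL6A1 was at 8.35 and 8.18 TPM in OH, against 3.87 and 3.15 TPM in CH. The OH pools were nearly equal and lay above both CH pools, with a log2 fold change of 1.22 (SE 0.25), but the adjusted p over all genes was 0.71. COL9A3 was at 18.8 and 16.9 TPM in OH, against 30.3 and 24.1 TPM in CH (log2 fold change -0.64, adjusted p = 1), and LAMA5 at 65.5 and 82.8 TPM in OH, against 48.7 and 45.3 TPM in CH (0.63, adjusted p = 1). The median log2 fold change of the 70 genes was 0.097, beside 0.0066 for all genes, and fold changes of most genes were small: COL5A1 was at 30.3 and 38.2 TPM in OH, against 24.5 and 31.6 TPM in CH, and COL2A1 at 211 and 242 TPM in OH, against 203 and 195 TPM in CH. No gene of the matrix partner, enzyme, adaptor, receptor, protease or marker lists was called either.

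Whether the change at the trunk end (OT minus CT) differed from that in the midbrain-hindbrain (OH minus CH) was tested as the difference of the 2 log2 fold changes. The 2 changes also differ in the level of mouse Otx2, at 334 and 529 TPM in OT and 97.4 and 160.3 TPM in OH. EGFP in their controls was at 1.12 and 15330 TPM in CT and at 7368 and 3977 TPM in CH. The part of these levels in the difference was not tested. None of the 70 genes was called, and 0.223% of all genes were. At an unadjusted p under 0.05 there were 17 genes, DESeq2 called 8, and without OT1 there were 3 calls (COL5A1, COL5A2 and LAMA5). The 17 genes at an unadjusted p under 0.05 are 24.3% of the 70, beside 13.1% of all genes. The smallest adjusted p was 0.081, for COL5A1 (difference 1.38, SE 0.21), and COL8A2 followed (-1.83, adjusted p = 0.114). For LAMA5 the difference was -1.32 (adjusted p = 0.158). A rise in OT with none in OH is thus not shown to differ between the regions for any of these genes.

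CT was then compared with CH, the trunk end with the midbrain-hindbrain in embryos without exogenous Otx2. In CT 20 genes were lower, among them 6 of the 7 fibrillar chains, and 4 were higher. The 24 calls are 34.3% of the 70 genes, where 7.78% of all genes were called. Lower calls made up 4.88% and higher calls 2.91% of all genes. The lower genes were the fibrillar chains other than COL3A1, 2 of the 3 type IX chains, COL12A1, COL15A1, COL16A1, COL22A1, COL24A1 and COL4A4, the laminins LAMA4 and LAMC3, and the integrins ITGA2, ITGA8, ITGA9 and ITGA11. The higher genes were LAMA3, LAMA5, ITGB4 and COL25A1. The median log2 fold change was -0.59, also with LAMA3 set at its bound, beside 0.0032 for all genes. This comparison shares CT with that of OT and CT, so a CT value that is low for its group moves both.

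The largest fall was in LAMC3, at 0.109 and 0.156 TPM in CT, against 2.51 and 2.53 TPM in CH (log2 fold change -4.18, SE 0.43, adjusted p = 0.00347). COL9A3 (gene 396242, chr20:8465795-8497663), of type IX collagen, was at 2.20 and 1.91 TPM in CT, against 30.3 and 24.1 TPM in CH. The groups were far apart, and its log2 fold change of -3.74 (SE 0.25) had the smallest adjusted p of the 70 genes, 0.000856. ITGA11 was at 0.170 and 0.305 TPM in CT, against 2.61 and 2.90 TPM in CH (-3.42, SE 0.39, adjusted p = 0.00478). COL1A1 was at 4.85 and 9.24 TPM in CT, against 58.8 and 65.4 TPM in CH (-3.14, SE 0.31, adjusted p = 0.00294). LAMA4 was at 0.769 and 1.81 TPM in CT, against 9.11 and 10.6 TPM in CH (-2.92, SE 0.38, adjusted p = 0.00662). In each of these genes the lower CH pool was several times the higher CT pool.

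COL15A1 (gene 420803, chr2:55428041-55535693), a basement membrane collagen of low level, was at 0.105 and 0.145 TPM in CT, against 0.892 and 0.855 TPM in CH (-2.73, SE 0.40, adjusted p = 0.00983). COL2A1 (gene 395069, chr34:1082265-1100836) was at 48.9 and 30.0 TPM in CT, against 203 and 195 TPM in CH (-2.35, SE 0.27, adjusted p = 0.00478). It was the most abundant fibrillar chain of the midbrain-hindbrain. COL4A4 was at 0.218 and 0.258 TPM in CT, against 0.871 and 1.28 TPM in CH (-2.12, SE 0.44, adjusted p = 0.0309). COL12A1 (gene 395875, chr3:80285904-80391612), which binds to type I fibrils, was at 1.89 and 1.94 TPM in CT, against 5.996 and 9.62 TPM in CH (-1.87, SE 0.19, adjusted p = 0.00307). COL9A1 (gene 771873, chr3:82301350-82367562) was at 10.7 and 11.7 TPM in CT, against 40.8 and 32.9 TPM in CH (-1.83, SE 0.23, adjusted p = 0.00625). Each of these genes had CT wholly below CH, as did the other 10 lower calls, which follows largely from their choice by this test. The log2 fold changes of the other 10 lay between -0.90 for ITGA2 and -1.67 for ITGA9.

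Of the 4 genes higher in CT, 3 code for chains of epithelial basement membranes and their receptors. LAMA5 (gene 428148, chr20:7956676-8036244) was at 119 and 146 TPM in CT, against 48.7 and 45.3 TPM in CH (1.48, SE 0.22, adjusted p = 0.0108). ITGB4 (gene 417374, chr18:4948453-4971836) was at 6.68 and 6.85 TPM in CT, against 2.97 and 2.04 TPM in CH (1.42, SE 0.33, adjusted p = 0.0464). LAMA3 (gene 428524, chr2:102802988-102916208), the alpha chain of the epidermal laminin, had 109 and 73 reads in CT and none in CH, which makes it at least 56.7-fold higher in CT with 3 reads over the group taken as the limit of a count of 0. It stayed below 1 TPM (adjusted p = 0.0214), and counting error alone is covered by this limit. COL25A1 (gene 429900, chr4:36877539-37178331), a collagen anchored in the membrane of neurons, was at 2.07 and 3.97 TPM in CT, against 0.563 and 0.896 TPM in CH (2.05, SE 0.41, adjusted p = 0.0286).

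**Figure D4:**
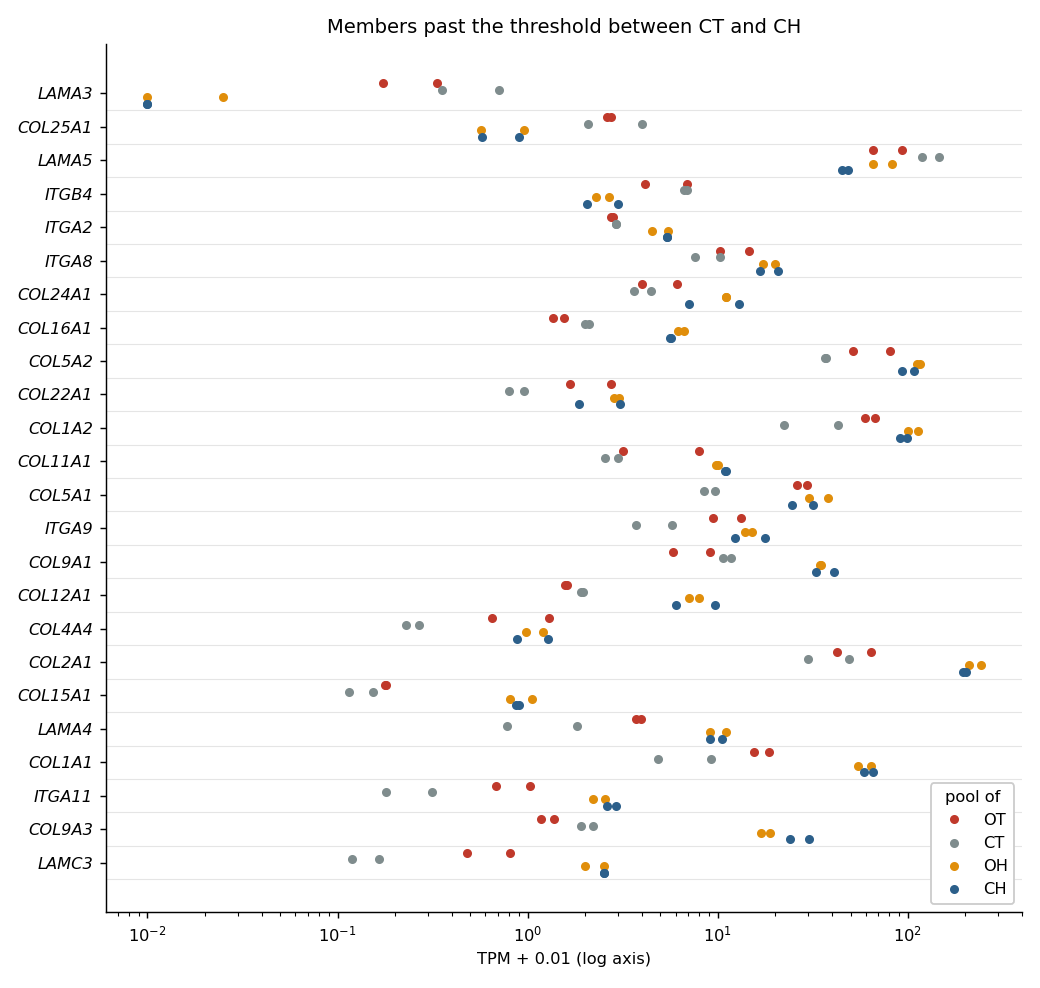
TPM (with 0.01 added, log axis) of the 24 genes that passed the threshold between CT and CH, in each pool of OT, CT, OH and CH, from the largest rise at the top to the largest fall at the bottom. CT and CH points are apart in all 24 genes, which follows largely from choosing genes called between these groups. OT lies between CT and CH in some, such as LAMA4 (3.70 and 3.96 TPM in OT, 0.769 and 1.81 TPM in CT, 9.11 and 10.6 TPM in CH), but not in COL9A3 (1.17 and 1.36 TPM in OT, 2.20 and 1.91 TPM in CT).

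For 9 of the 24 genes the call held when any of the 8 libraries was left out: COL1A1, COL2A1, COL5A1, COL5A2, COL9A3, COL12A1, ITGA11, LAMA4 and LAMC3. Without CT1 there were 13 calls, without CT2 15, without CH1 15, without CH2 12, and without OH1 or OH2 18, and no left-out library moved a log2 fold change by more than 0.74, LAMA3 aside. The widest shift was in LAMA4, which was at -3.66 without CT2. COL24A1, a fibrillar-like chain, was at -0.89 without CH2, against -1.30 with it. Heart markers were lower in CT (4 of 4 called), with sums of 7.74 to 8.37 TPM in CT and 254 to 2598 TPM in CH. Neural crest markers were lower (3 of 4: SOX10, FOXD3 and TFAP2B), with sums of 113 to 131 TPM in CT and 168 to 179.7 TPM in CH. SNAI2, which made up most of the CT sums, went the other way (log2 fold change 0.34) and was not called. SOX10 was at 0.0224 and 0.0195 TPM in CT, against 29.9 and 32.4 TPM in CH. FOXD3 was at 0 and 0.0477 TPM in CT, against 20.7 and 24.2 TPM in CH. Notochord markers were higher (3 of 5), with sums of 362 to 443 TPM in CT and 99.9 to 107 TPM in CH. Surface ectoderm markers were also higher (2 of 5), with sums of 2847 to 3769 TPM in CT and 1866 to 2224 TPM in CH. The sum of heart markers was 254 TPM in CH1 and 2598 TPM in CH2. Midbrain-hindbrain (5 of 5) and neural markers (3 of 4) were lower in CT and sinus rhomboidalis markers (6 of 6) higher, which are the regions compared. Of 5 paraxial mesoderm markers 2 were higher and 1 lower, of 3 blood markers 1 was higher, and no endothelium or extra-embryonic endoderm marker was called. The part of the other tissues in the result was not tested.

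Of 19 matrix partners tested 6 were lower in CT (SPARC, NID2, AGRN, THBS1, DCN, ACAN), and of 19 enzymes SERPINH1, the collagen chaperone, LOXL1 and LOXL3 were lower while P4HA2, a prolyl hydroxylase, was higher, where 4.88% of all genes were called lower and 2.91% higher. SPARC, a collagen-binding protein of the matrix, was at 188 and 216 TPM in CT, against 415 and 435 TPM in CH (-1.09, adjusted p = 0.00393). Of 8 other receptors SDC2, DDR1 and DDR2 were lower and SDC3 higher, where DDR1 and DDR2 are collagen receptors with kinase activity. SPARC and SDC3 were called when any of the 8 libraries was left out, but without CT1 only 1 of the 6 partner calls, none of the 4 enzyme calls and 2 of the 4 receptor calls were kept. Calls in each of these lists were also lost with CT2, OH1 or OH2 left out, so the losses are not particular to CT1. No adaptor and no protease was called, and SOX5, SOX6 and SOX9 were not called.

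Set side by side, the 2 comparisons that share CT gave for COL5A1 group means of 27.8 TPM in OT, 9.10 TPM in CT and 28.05 TPM in CH. For COL1A1 the means were 17.1 TPM in OT, 7.05 TPM in CT and 62.1 TPM in CH, and for COL4A4 0.961 TPM in OT, 0.238 TPM in CT and 1.07 TPM in CH. OT was thus at 99.1% of the CH mean for COL5A1, 89.5% for COL4A4 and 75.4% for ITGA9, at 27.5% for COL1A1, 25.2% for LAMC3 and 30.7% for ITGA11, and at 26.9% for COL2A1, 20.3% for COL9A1 and 4.65% for COL9A3. COL6A1 stood at 293% of CH in OT. No test was made between OT and CH, which differ in both region and Otx2.

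Transcripts were looked at for COL9A1, COL11A1 and COL4A1, with no rule set for their choice. A further difference was seen in COL9A1, for which 2 transcripts of 3959 and 3175 bases are annotated. The longer was at 1.21 and 2.003 TPM in OT, with 74 and 130 reads, against 0.0119 and 0 TPM in CT, with 1 and 0 reads. In the midbrain-hindbrain it was at 13.3 and 13.5 TPM in OH and 10.6 and 7.72 TPM in CH. Its share of the COL9A1 TPM was 20.7% and 21.9% in OT, 0.111% and 0% in CT, 38.2% and 39.2% in OH and 25.9% and 23.5% in CH, so that OT held reads of a form with at most 1 read in CT, while its COL9A1 total lay below that of CT. In the area opaca the longer form held 17.4% in OA (27 reads) and 2.83% in CA (5 reads). The shorter transcript was at 4.62 and 7.13 TPM in OT, against 10.7 and 11.7 TPM in CT. Each group is 2 pools, the reads were divided between transcripts by StringTie, and the shares were not tested. A 698-base stretch is shared with the neighbouring COL19A1, and the strand setting is not given in the sources used here. COL19A1 was also higher in OT, at 1.46 and 2.32 TPM, against 0.273 and 0.140 TPM in CT. Its part in the COL9A1 reads was not tested.

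**Figure D5:**
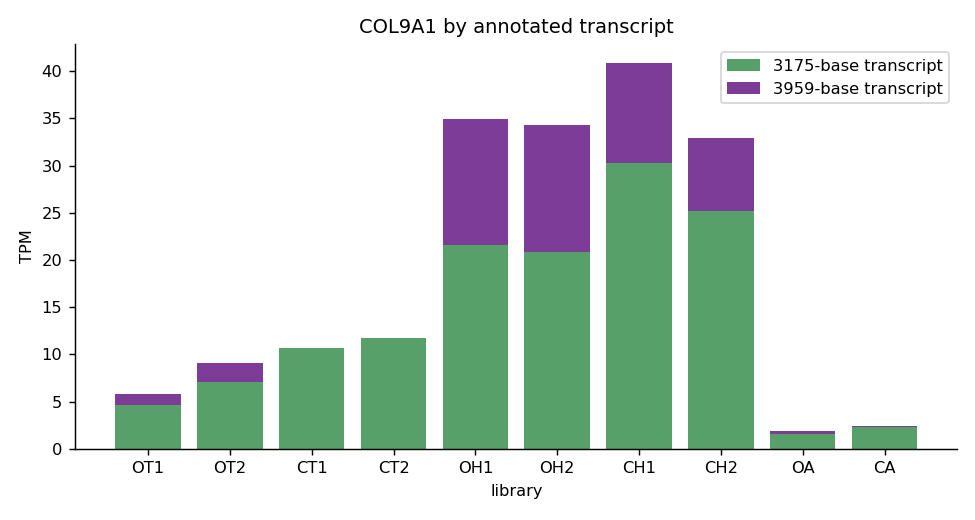
TPM of the 2 annotated COL9A1 transcripts in each library, stacked. The longer form makes up 20.7% and 21.9% of the total in OT, 0.111% and 0% in CT, and between 23.5% and 39.2% in OH and CH.

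Transcript assignment was not equally steady in other genes. For COL11A1 the transcript of 7315 bases held 86.7% to 96.1% of the TPM in OH and CH and 94.4% in OT2, but 0% in OT1, CT1, CT2, OA and CA, where the transcript of 10640 bases held 69.0% to 77.4%. For COL4A1 the form of 8254 bases held 72.4% in OT1, 75.5% in OH2 and 79.5% in CH2 and at most 0.14% in the 7 other libraries, which follows neither region nor Otx2.

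OA was set beside CA without a test, since each is 1 pool. Of 35 genes with at least 5 TPM in either pool, 7 were at least 2-fold higher in OA (COL1A1, COL1A2, COL5A1, COL5A2, COL23A1, ITGA3 and ITGA8), where 5.06% of all 10570 genes at that level were. At least 2-fold lower was 1 of the 35, where 2.44% of all genes were. COL5A1 was at 25.1 TPM in OA, against 8.92 TPM in CA. COL1A2 was at 66.7 TPM in OA, against 26.0 TPM in CA. The 35 genes had a median OA to CA ratio of 1.38, beside 1.08 for all genes, and 29 of them were higher in OA. COL4A2, COL3A1, COL6A1, ITGB2 and ITGB4 were higher in both area opaca pools than in any of the 8 embryo libraries, with COL6A1 at 15.1 and 14.5 TPM. Of the 64 genes that reached 1 TPM in a library, 10 were lower in both than in any of the embryo libraries. Among them were COL2A1 (11.8 and 10.8 TPM), the 3 type IX chains, COL8A2, ITGA5 and ITGA6. The share of all genes outside the embryo range was not counted, so these genes have no background to be set against.

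The gene with the largest called change of each family was taken among genes of at least 1 TPM in a library, which leaves out LAMA3. Its most similar profiles over the 10 libraries were found among the 63 other such genes, by Pearson's r of log2(TPM + 1). COL9A3 was closest to COL15A1 (r = 0.97), COL16A1 (0.96) and COL9A1 (0.94). LAMC3 was closest to COL1A1 (0.94), COL15A1 (0.93) and COL12A1 (0.92), and ITGA11 to COL11A1 (0.97), COL1A1 (0.96) and COL15A1 (0.95). The 10 points share their tissue in pairs, so these values mostly describe the difference between the midbrain-hindbrain and the other tissues.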

How the data were processed

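The members and lists were chosen with earlier results of these data known. Poly-A libraries from pools of 4 embryos were read as 100 bp paired ends on a NovaSeq X. The authors deposited whole-number counts and TPM values per gene and per transcript against GRCg7w with mouse Otx2 and EGFP added, with levels estimated by StringTie (version not given in the sources used here, as are the aligner and strand setting). The 20 FPKM columns were not used. TPM corrects for annotated transcript length, so a short gene model changes the level but not the fold change.

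Counts of 8 libraries (OT, CT, OH, CH) were filtered with filterByExpr, which removed 8832 genes, scaled by TMM and fitted with 1 coefficient per group by edgeR 4.0.16 (glmQLFit, glmQLFTest) in R 4.3.3. OT minus CT, OH minus CH, the difference of these 2, and CT minus CH were tested, 2-sided, with Benjamini-Hochberg adjustment over 16611 genes. The SE is the log2 fold change divided by the root of F. The biological coefficient of variation was 27.9% with 4 residual degrees of freedom. A count of 0 allows up to 3 reads (0.0735 to 0.105 CPM), counting error only. OA and CA have 1 pool each and were not tested.

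The genes described are those called, the 5 highest of each family and the fixed classes of chains. The lists were matrix partners, collagen enzymes, integrin adaptors, other receptors, proteases and inhibitors, cartilage regulators and 11 tissue marker lists. PLOD3, PCOLCE, BMP1, FERMT3, BCAM, MMP11, MMP14, GATA1 and HBM were listed but not analysed here. Alternatives were DESeq2 1.42.0, limma 3.58.1 on log2(TPM + 1) and log2(TPM + 0.1), RLE scaling, no filter, a replicate block, the 4 libraries of a comparison alone, and each library left out. The scripts were tested on simulated data. Loci are those of GRCg7w, with chromosome names by gene ID from the GRCg7b annotation of RefSeq (73 of 73 matched). Sequences were not used here. Values of 1 laminin gene are not reported here.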

Additional observations from a re-analysis of the deposited data

How the results depend on the processing

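The 36 called gene results gave 540 values under the 15 alternatives, of which 375 kept the call and 165 lost it. All were in the original direction, which follows largely from choosing called genes and reusing the same libraries. Between OT and CT, where 12 genes were called, DESeq2 called 24, limma 6 with a pseudocount of 1 and 5 with one of 0.1, and the 4 libraries alone 1. Leaving out 1 library gave 1 to 10 calls there, 0 between OH and CH, 0 to 3 for the difference of the 2 effects and 12 to 27 between CT and CH. DESeq2 called 1 gene between OH and CH and 8 for the difference. With a replicate block the counts were 9 between OT and CT (without COL1A1, COL23A1, COL4A4 and LAMA4, with COL22A1 added), 0 between OH and CH, 0 for the difference and 23 between CT and CH (without ITGA2). Same-numbered deviations had r between -0.155 and 0.143 over the pairs of groups. The highest were those of the same treatment, OT with OH (0.143) and CT with CH (0.128). Whether same-numbered pools of 2 regions came from the same embryos was not tested, and the labels do not say. CT1 and CH1 were unlike in EGFP, at 1.12 and 7368 TPM, and only CT1 is titled as without electroporation. Each group had 2 pools, and the fit had 4 residual degrees of freedom. Genes under 1 TPM rest on few reads.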
